A study of Mus with 9 samples.

Results

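The ionotropic glutamate receptors of the AMPA and NMDA classes were examined in the hippocampus through the 10 genes Gria1 to Gria4, Grin1, Grin2a to Grin2d and Grin3a. Members were taken by gene symbol, and all 10 were found among the 22206 probe sets (transcript clusters) of the Clariom S Mouse array, each with 1 probe set. Of these, 4 encode AMPA and 6 encode NMDA receptor subunits. Hippocampal RNA came from male mice that were 16 weeks old at the start, with 3 arrays in each of 3 groups. The SAMR1 group, a senescence-resistant strain kept as the control for normal aging, and the SAMP8 group, the senescence-prone strain, received vehicle (saline in the sample records, water in the methods). The TG-treated SAMP8 group received trigonelline (TG), a plant alkaloid also called N-methyl nicotinic acid, by mouth at 5 mg/kg for 30 days. All groups went through 8 days of behavioral testing in a water maze before the tissue was taken, and TG was continued over these days. The strain names are the only genotype given, so any difference between SAMP8 and SAMR1 is one between strains and not between ages.

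AMPA receptors carry most of the fast excitatory current at hippocampal synapses. They are tetramers of the products of Gria1 to Gria4, and the Gria2 product, once its transcript has been edited, makes the channel nearly impermeable to calcium. NMDA receptors need glutamate together with glycine or D-serine and the relief of a magnesium block, and the calcium they admit starts the strengthening of synapses that underlies spatial learning. Each NMDA receptor contains the obligatory product of Grin1 together with products of the Grin2 genes or, less often, of the Grin3 genes, and the Grin2 product sets how long the current lasts.

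The deposited tables hold 1 average per group for every probe set, on the log2 scale after SST-RMA normalization by the authors. Differences between groups are given here as differences of these log2 averages, and the word fold refers to the same difference on the linear scale. The spread between mice was not analysed here, so no p-value or standard deviation accompanies any value, and no difference below was tested here against that spread. A limit of 1.5-fold was used to count differences, with 1.2-fold as a lower limit. The medians over all probe sets were 6.09 in SAMR1, 6.04 in SAMP8 and 6.07 with TG. Averages ended at a ceiling of 19.93, which 10 probe sets reached in all groups, and the subunits lay below it. The signals of different probe sets depend on their probes and were not ranked against each other. The tissue is a mixture of cells, so fewer cells of a type and less RNA per cell cannot be told apart.

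Of the AMPA receptor genes, Gria1, Gria3 and Gria4 had higher averages in SAMP8 than in SAMR1, whereas the averages of Gria2 were almost the same. Gria1 lies on chromosome 11 from 57011571 to 57330244 (GRCm38) and encodes a subunit that is inserted into synapses during long-term potentiation. Its group averages were 16.83 in SAMR1, 17.26 in SAMP8 and 16.98 with TG. The lowest average was that of SAMR1 and the highest that of SAMP8, with a difference of 0.43 (1.35-fold). Gria3, on chromosome X from 41400819 to 41678601, encodes a subunit that pairs with the Gria2 product in receptors that cycle through the synapse. The averages of Gria3 were 13.71, 14.16 and 13.99 in the same order of groups, and SAMP8 exceeded SAMR1 by 0.45 (1.37-fold). Gria4, on chromosome 9 from 4417893 to 4796234, is used mainly by some inhibitory interneurons and by neurons outside the hippocampus such as those of the thalamus. It averaged 9.95 in SAMR1, 10.38 in SAMP8 and 9.90 with TG, so that SAMP8 stood alone as the high group.

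Gria2, on chromosome 3 from 80681450 to 80804227, averaged 15.88 in SAMR1, 15.87 in SAMP8 and 15.71 with TG. The difference between SAMP8 and SAMR1 was -0.01, and it was 0.04 when each group was centred on its own median, so its direction was not settled. Relative to Gria2, SAMP8 was therefore above SAMR1 by 0.44 for Gria1, by 0.46 for Gria3 and by 0.44 for Gria4. In TG-treated SAMP8 compared with SAMR1, the same relative differences were 0.32 for Gria1, 0.45 for Gria3 and 0.12 for Gria4. These are contrasts of transcript averages, and the subunit composition of receptors was not measured.

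**Figure D1:**
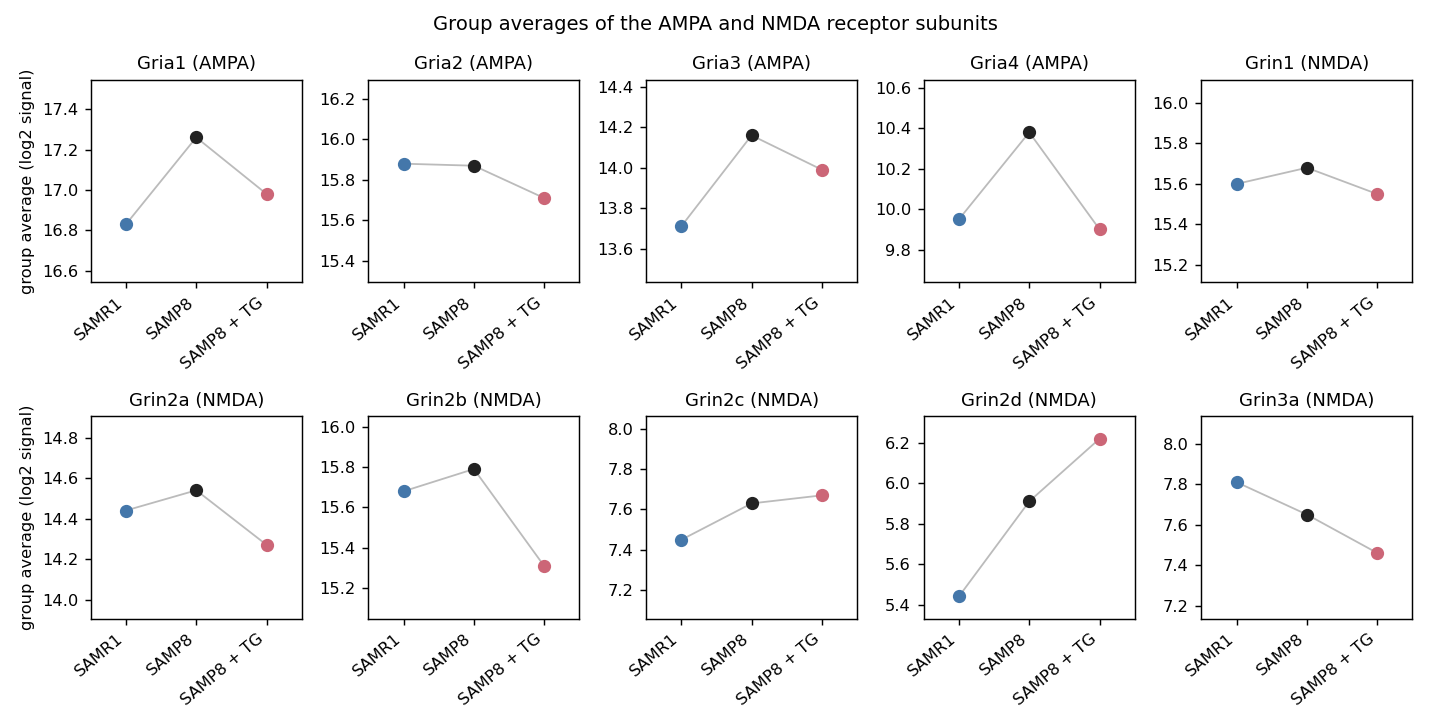
Group averages (log2 signal, vertical axes) of the 10 subunit genes, with 1 point for each of the groups SAMR1, SAMP8 and SAMP8 + TG, and each panel spans 1 log2 unit around its own values. Gria1, Gria3 and Gria4 stand highest in SAMP8, whereas Grin2d is lowest in SAMR1 (5.44) and highest with TG (6.22).

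Among the NMDA receptor genes, Grin1, Grin2a and Grin2b differed little between SAMP8 and SAMR1, and Grin2d differed most. Grin1, on chromosome 2 from 25291177 to 25319187, averaged 15.60 in SAMR1, 15.68 in SAMP8 and 15.55 with TG. The 3 averages of this obligatory subunit lay within 0.13 of each other. Grin2a, on chromosome 16 from 9567901 to 9996083, encodes the subunit of fast-decaying receptors that dominate in the adult forebrain, and it averaged 14.44, 14.54 and 14.27 in the same order. Grin2b, on chromosome 6 from 135713221 to 136173615, encodes the subunit of slower receptors that prevail early in life. Its averages were 15.68 in SAMR1, 15.79 in SAMP8 and 15.31 with TG, with the TG group as the low one. SAMP8 exceeded SAMR1 by 0.08 for Grin1, 0.10 for Grin2a and 0.11 for Grin2b. After centring on probe sets of like signal and genomic span these differences were -0.03, -0.01 and 0.00, so none of these genes had a settled direction between the strains.

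Grin2d, on chromosome 7 from 45831883 to 45871194, encodes a subunit with very slow decay that adult hippocampus uses chiefly in interneurons. It averaged 5.44 in SAMR1, 5.91 in SAMP8 and 6.22 with TG, and SAMP8 was above SAMR1 by 0.47 (1.39-fold). These averages lie close to the median of all probe sets, and no detection call was analysed here, so how far they stand above background is unknown. Grin2c, on chromosome 11 from 115249169 to 115267297, is best known from cerebellar granule cells and astrocytes. It averaged 7.45 in SAMR1, 7.63 in SAMP8 and 7.67 with TG, a range of 0.22 that was smaller than those of Grin2d and Grin3a. Grin3a, on chromosome 4 from 49661611 to 49846023, encodes a subunit that lowers calcium entry and is most used in early postnatal life. Grin3a was the one NMDA gene with its highest average in SAMR1, at 7.81, against 7.65 in SAMP8 and 7.46 in TG-treated SAMP8. Grin3b, the remaining NMDA receptor gene and no member of the list, averaged 4.96, 4.98 and 5.00.

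Counted over the 10 subunits, 8 were higher and 2 lower in SAMP8 than in SAMR1, with a median difference of 0.14; the split was 9 to 1 after centring on group medians, and 5 to 4 with 1 at 0.00 after centring on signal and genomic span. Over all probe sets 49.5% were higher and the median was 0.00. No subunit (0 of 10) reached 1.5-fold in this comparison, where 11.1% of all probe sets did. At 1.2-fold or more, 4 subunits (Gria1, Gria3, Gria4 and Grin2d) were higher, against 20.4% of all probe sets, and 0 were lower, against 20.4%. The median was 0.43 over the AMPA genes and 0.11 over the NMDA genes. Of the 1111 probe sets in the class of highest signal (averages from 12.64), to which 6 of the 10 subunits belong, 63.4% were higher in SAMP8, with a median of 0.09. Centred on probe sets of like signal and genomic span, the differences of Gria1, Gria3, Gria4 and Grin2d were 0.32, 0.34, 0.30 and 0.50. The median of the 10 subunits was then 0.04.

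**Figure D2:**
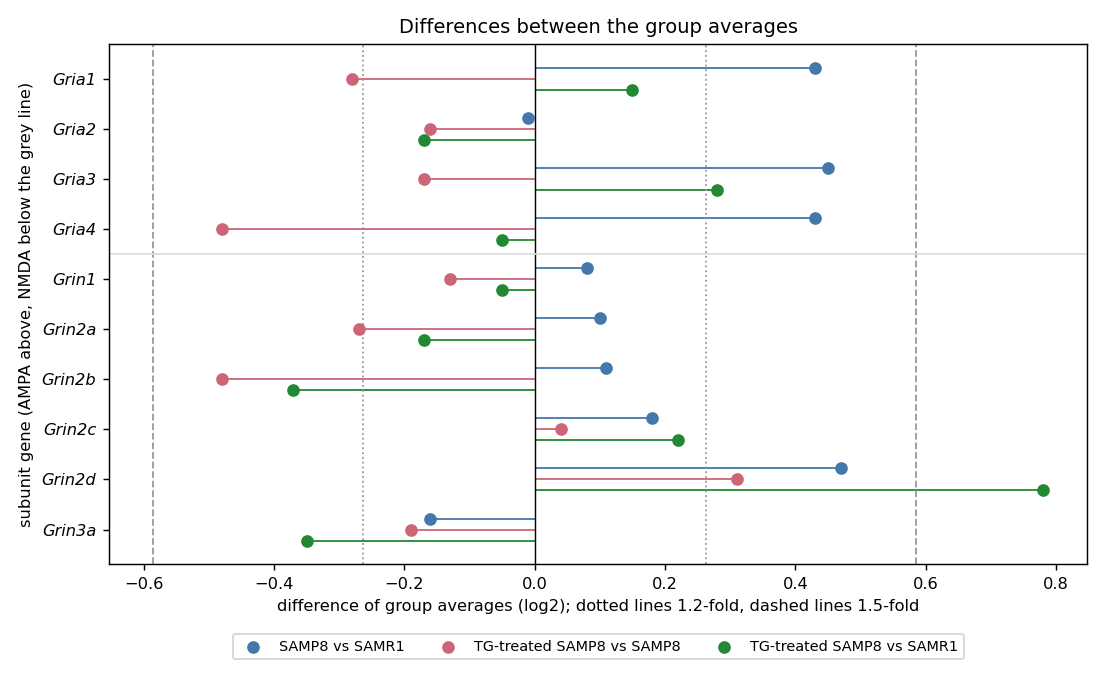
Differences of group averages (log2, horizontal axis) for each subunit in SAMP8 vs SAMR1 (blue), TG-treated SAMP8 vs SAMP8 (red) and TG-treated SAMP8 vs SAMR1 (green), with dotted lines at 1.2-fold and dashed lines at 1.5-fold. The single point beyond a dashed line is Grin2d in TG-treated SAMP8 vs SAMR1 (0.78).

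With TG, most subunits had lower averages than in nontreated SAMP8, led by Gria4 and Grin2b. The difference from nontreated SAMP8 was -0.48 (1.39-fold lower) for both Gria4 and Grin2b. It was -0.28 (1.21-fold lower) for Gria1 and -0.27 (1.21-fold lower) for Grin2a. The remaining lower averages were those of Grin3a (-0.19), Gria3 (-0.17), Gria2 (-0.16) and Grin1 (-0.13). For Gria3 the sign turned, to 0.01, after centring on probe sets of like signal and genomic span. Grin2d was higher with TG by 0.31 (1.24-fold), and Grin2c by 0.04. In all, 8 subunits were lower and 2 higher (7 and 3 after that centring), with a median of -0.18, while 48.3% of all probe sets were lower and their median was 0.01. The count at 1.5-fold was 0 of 10, where 8.21% of all probe sets reached it. At 1.2-fold or more, 4 subunits were lower, against 18.5% of all probe sets, and 1 was higher, against 19.6%. After centring on signal and genomic span, Gria4 and Grin2b were the 2 subunits still lower by 1.2-fold or more, Grin2d was still the 1 higher, and the median was -0.06.

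Within the NMDA receptor genes, the TG group differed from nontreated SAMP8 unequally. The difference of Grin2b minus that of its obligatory partner Grin1 was -0.35, and minus that of Grin2a it was -0.21. Grin1 is far shorter than Grin2b, and after centring on signal and genomic span both contrasts were -0.21. Between SAMP8 and SAMR1 the corresponding contrasts were 0.03 and 0.01. For Grin2d relative to Grin1 the contrast was 0.44 with TG and 0.39 between the strains (0.39 and 0.53 after that centring). Within the AMPA receptor genes, the contrasts with TG relative to Gria2 were -0.32 for Gria4, -0.12 for Gria1 and -0.01 for Gria3 (-0.27, -0.07 and 0.04 after that centring). Both comparisons use the same SAMP8 averages with opposite sign, so the values are set side by side and nothing is drawn from their directions.

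**Figure D3:**
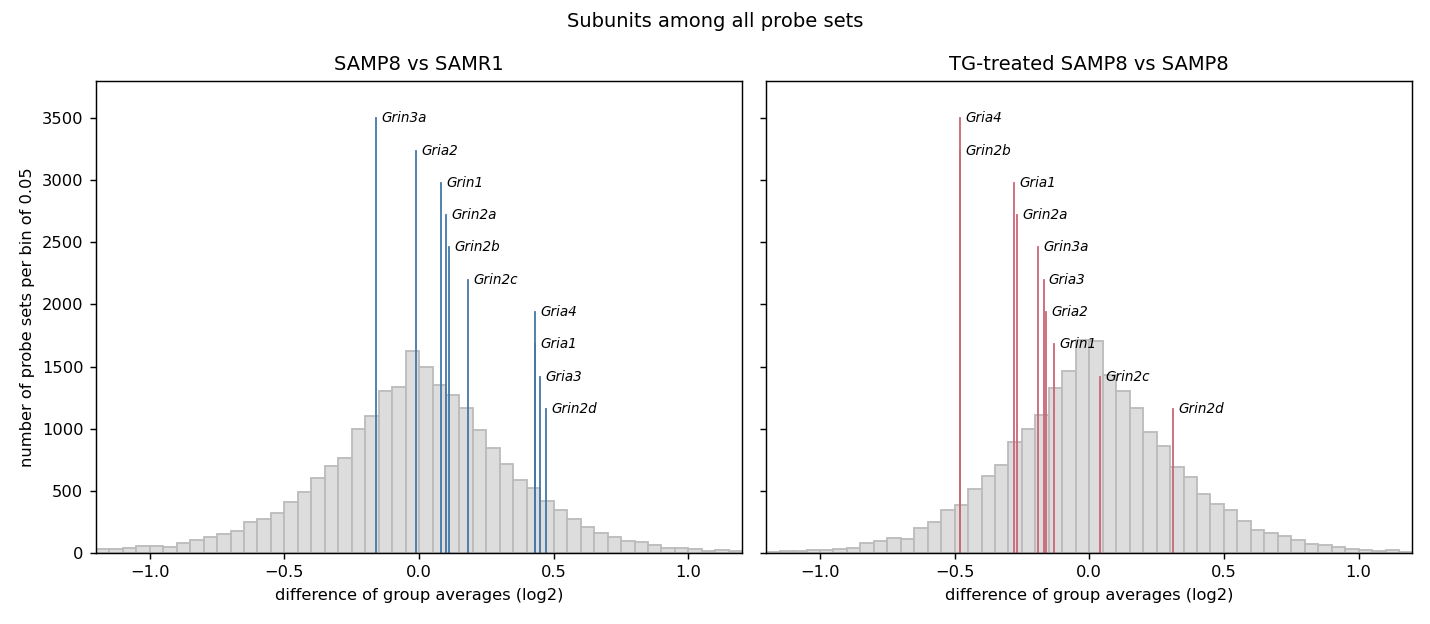
Number of probe sets (vertical axis) by difference of group averages (log2, horizontal axis, bins of 0.05, drawn to 1.2 on either side of 0) in SAMP8 vs SAMR1 and in TG-treated SAMP8 vs SAMP8, with each subunit marked by a line whose height carries no value. Gria1, Gria3, Gria4 and Grin2d form the right-hand group of lines on the left (0.43 to 0.47), and Gria4 and Grin2b are the leftmost lines on the right (both at -0.48).

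Comparing TG-treated SAMP8 with SAMR1 directly, without the nontreated SAMP8 averages, 6 subunits were lower and 4 higher, and the median was -0.05 against -0.01 over all probe sets. Grin2d was above SAMR1 by 0.78 (1.72-fold), the 1 subunit of 10 past 1.5-fold, where 10.5% of all probe sets were. At 1.2-fold or more, Grin2d and Gria3 (0.28) were higher, against 20% of all probe sets, and Grin2b (-0.37) and Grin3a (-0.35) were lower, against 20.5%. After centring on signal alone, Gria3 fell just short of that limit (0.26). It stayed past the limit after centring on group medians (0.3) and on signal and genomic span (0.35). Gria4 and Grin1 each differed from SAMR1 by -0.05. Each subunit was also placed among the 1111 probe sets of its own signal class. In the class of Grin2d, which is not that of highest signal, 98.0% had a lower difference than Grin2d. In the class of highest signal, which holds Grin2b, 11.8% had a lower difference than Grin2b. These were the highest and lowest such shares of the 10 subunits. The others ran from 14.9% (Grin3a) to 75.7% (Gria3).

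The subunit genes are long, and the averages of long genes differed between the groups on the whole array. Genomic span, the distance from the start to the end of a gene in the RefSeq annotation of GRCm38, ran from 18.1 kb (Grin2c) to 460.4 kb (Grin2b). The 7 subunits in the class of longest genes (57.4 kb or more) were Gria1 to Gria4, Grin2a, Grin2b and Grin3a. All 7 were lower with TG, with a median of -0.27, although Gria3 was at 0.01 after centring on signal and span. Of the 4317 probe sets of that class 64.0% were lower, with a median of -0.10, and of the 422 that also lie in the class of highest signal 74.9% were lower, with a median of -0.15. The 3 shorter subunit genes, Grin1, Grin2c and Grin2d, differed by -0.13, 0.04 and 0.31. Centred on probe sets of like signal and genomic span, the differences with TG were -0.30 for Gria4 and -0.29 for Grin2b, whereas they were -0.10 for Gria1, -0.08 for Grin2a, and -0.03 for both Gria2 and Grin3a. The part of gene length in these differences was not tested.

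**Figure D4:**
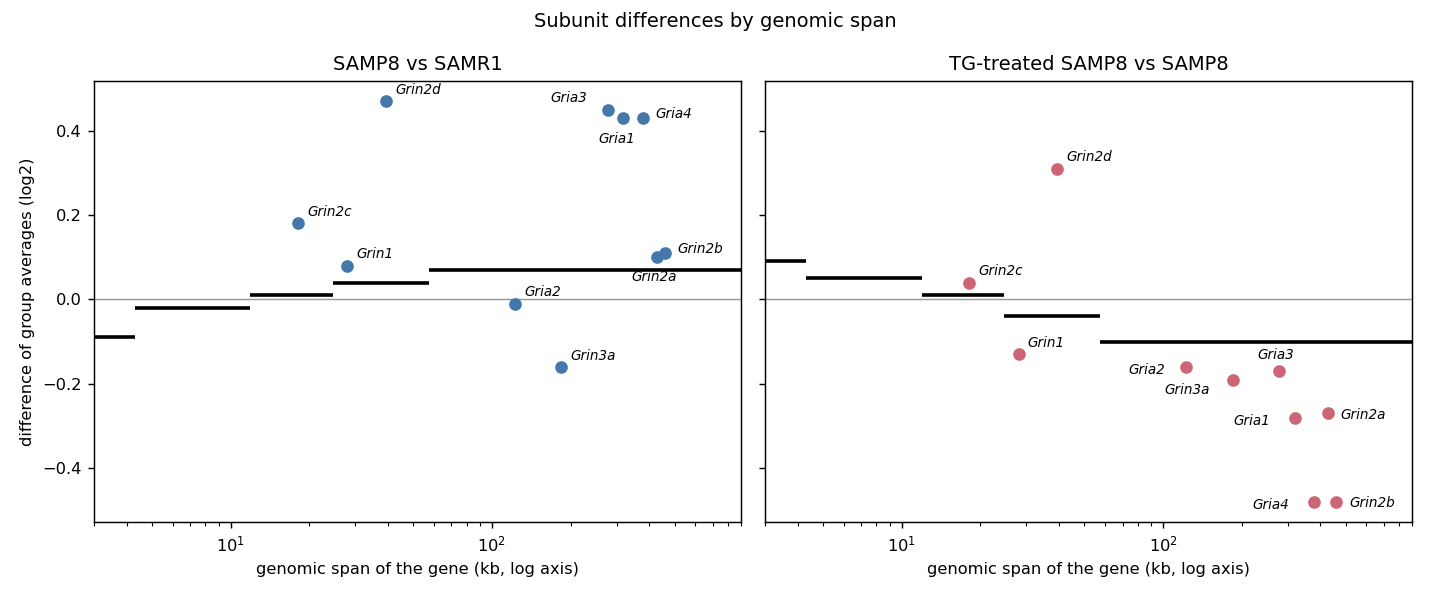
Difference of group averages (log2, vertical axis) of each subunit against its genomic span (kb, log axis) in SAMP8 vs SAMR1 and in TG-treated SAMP8 vs SAMP8; black bars are the medians of all probe sets in 5 equal classes of span. With TG the bars run from 0.09 for the shortest to -0.10 for the longest genes, and Gria4 and Grin2b lie furthest below them.

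The genes of proteins that accompany AMPA receptors did not share 1 direction. For the lists that follow, 49.5% of all probe sets were higher in SAMP8 than in SAMR1 and 48.3% were lower with TG, with medians of 0.00 and 0.01. Of 16 auxiliary subunits and assembly factors, 9 were higher and 5 lower in SAMP8 than in SAMR1 (median 0.16), and 5 were higher and 11 lower with TG (median -0.13). Centred on signal and span, these medians were 0.03 and -0.04. Cacng3, which encodes an auxiliary subunit (TARP) of cortical and hippocampal AMPA receptors, averaged 13.24 in SAMR1, 13.98 in SAMP8 and 13.68 with TG. Cacng5, another TARP gene, averaged 6.66, 7.47 and 6.62, so that SAMP8 stood above both other groups by 0.81 or more. Cnih3, a cornichon gene whose product slows AMPA receptor deactivation, averaged 10.77, 10.52 and 9.85, a difference of -0.67 between the TG group and SAMP8. Its relative Cnih2, chosen after its values were seen, was higher with TG by 0.53 (13.00 in SAMR1, 13.19 in SAMP8 and 13.72 with TG). In the list of AMPA receptor trafficking, 15 of 16 genes were found. There 7 were higher and 8 lower with TG (median -0.05), and 9 were higher and 5 lower in SAMP8 than in SAMR1 (median 0.08), and after that centring the medians were 0.09 with TG and 0.00 between the strains. Arc, an activity-induced gene whose product removes AMPA receptors from synapses, averaged 6.88, 7.52 and 8.01. Nptx2, a secreted pentraxin that clusters AMPA receptors on interneurons, was equal in the vehicle groups (6.53 each) and reached 7.20 with TG. Akap5, the anchor of kinases and phosphatases at the receptor, averaged 8.92, 9.53 and 9.09.

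Genes of NMDA receptor partners and kinases, of which 17 of 18 were found, were lower with TG in 14 cases and higher in 2, with a median of -0.29. Between SAMP8 and SAMR1, 14 were higher and 2 lower, with a median of 0.25. Centred on probe sets of like signal and span, the medians were -0.16 with TG and 0.14 between the strains. Camk2b, a subunit of the calcium-dependent kinase that binds Grin2b, averaged 17.68 in SAMR1, 18.50 in SAMP8 and 17.36 with TG. SAMP8 was thus above SAMR1 by 0.82, and the TG group differed from SAMP8 by -1.14. Rasgrf2, an exchange factor that links NMDA receptors to Ras signaling, differed by 0.54 between the strains and by -0.59 with TG. Camk2a could not be compared, because its average was at the ceiling of 19.93 in every group. It was nevertheless kept in the medians of this list, with differences of 0.00 as deposited. The 8 genes that supply glycine and D-serine had medians of -0.04 between the strains and -0.17 with TG, both -0.13 after that centring.

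For glutamate release and uptake, 9 of 10 genes were found, with medians of 0.22 in SAMP8 vs SAMR1 and -0.03 with TG (0.14 and -0.01 when centred on signal and span). Slc17a7, the vesicular glutamate transporter of hippocampal excitatory neurons, averaged 18.02, 18.12 and 18.11. Slc17a6, the transporter typical of thalamic and other subcortical neurons, averaged 7.48 in SAMR1, 8.14 in SAMP8 and 8.21 with TG. Slc1a3, an astrocyte glutamate transporter, averaged 11.14, 11.76 and 11.38. Of the editing enzymes, Adarb1, which edits the Gria2 transcript, averaged 13.71, 14.12 and 14.11, and the 3 genes of that list had medians of 0.18 between the strains and -0.05 with TG (0.05 and 0.15 when centred).

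**Figure D5:**
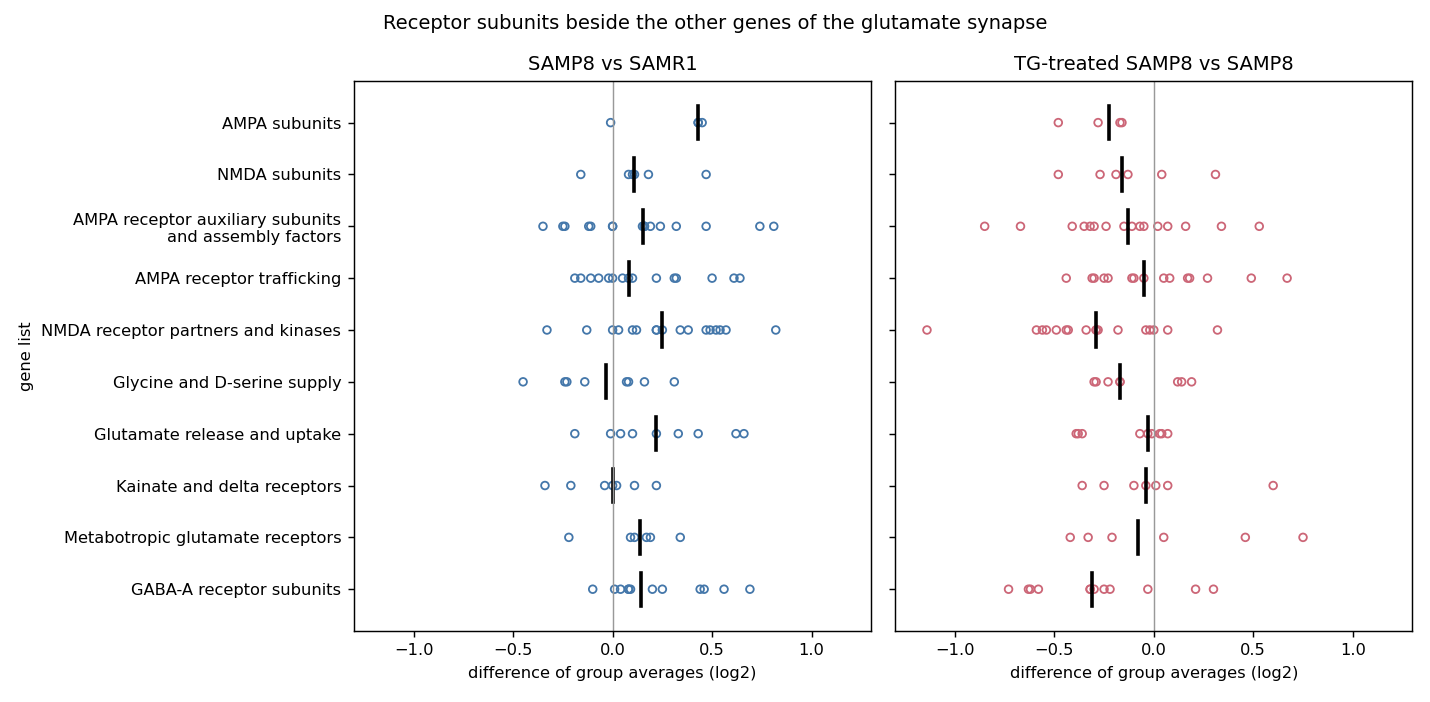
Differences of group averages (log2, horizontal axis) of single genes (open circles) and list medians (black bars) for AMPA and NMDA subunits and 8 other lists, in SAMP8 vs SAMR1 and in TG-treated SAMP8 vs SAMP8. The AMPA subunits have a median of 0.43 on the left, and with TG the medians were -0.23 for the AMPA and -0.16 for the NMDA subunits, all as deposited, without centring on signal or span.

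Other receptor families were set beside the subunits by their counts and medians, and no difference between families was tested. Values in parentheses after a pair of medians are those centred on signal and span. The 7 kainate and delta receptor genes had medians of 0.00 in SAMP8 vs SAMR1 and -0.04 with TG (-0.11 and 0.12), with Grid1 higher by 0.60 with TG (6.20 in both vehicle groups and 6.80). Of the metabotropic glutamate receptor genes, 6 of 7 were found, with medians of 0.14 and -0.08 (0.02 and 0.11), and Grm2 was higher with TG by 0.75 (10.55 in SAMR1, 10.33 in SAMP8 and 11.08 with TG). The 12 GABA-A receptor genes, subunits of the main inhibitory channel, had medians of 0.15 and -0.31 (0.12 and -0.14). In that family 10 of 12 were lower with TG, among them Gabra2 (-0.73), Gabra4 (-0.63) and Gabrg1 (-0.62), and Gabra5 was higher by 0.69 in SAMP8 than in SAMR1.

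Marker genes of the cells and regions that a hippocampal sample can hold were read from the same averages. The dissected tissue showed its own markers, with Neurod6 at 14.86, 14.85 and 14.88 and Slc17a7 above 18 in each group. No detection call was analysed here, so how far markers of low signal stand above background is unknown. Over the 9 markers of excitatory hippocampal neurons below the ceiling (Camk2a, at it, was left out) the log2 of the summed signal was 18.31, 18.46 and 18.55 in the order of groups used above. The median differences of all 10 were 0.30 between the strains and 0.02 with TG, and single markers ranged with TG from -0.85 (Prox1) to 0.84 (Nrgn). Over 9 of 10 markers of interneurons, cells that use Gria4 and Grin2d, the log2 of the summed signal was 13.26, 13.31 and 13.37 (median differences 0.16 and 0.08). The summed signal of 10 markers of the thalamus, where Gria4 is also used, was 12.62, 12.97 and 12.03, and their median differences were 0.32 between the strains and -0.08 with TG. In that list 6 genes were lower and 4 higher with TG, and Zic1 differed by -1.91, Prkcd by -1.5 and Synpo2 by 0.63. Such a sum is weighted toward the probe sets of highest signal, which in SAMP8 were Zic1 (11.47) and Prkcd (11.03). For the meninges (10 genes) the sums were 11.51, 11.66 and 10.45. In that list 7 genes were lower and 3 higher with TG, from -2.69 (Ptgds) to 0.46 (Lum). The probe sets of highest signal, which weigh most in this sum, were Ptgds (10.26) and Dcn (10.15) in SAMP8. The median of the meninges list was 0.12 between the strains and -0.42 with TG. Median differences with TG were 0.38 for myelinating oligodendrocytes (8 genes), -0.14 for oligodendrocyte precursors (5 of 6 genes found), -0.07 for astrocytes (8), 0.13 for microglia (8), -0.11 for choroid plexus (8), -0.28 for striatum (8) and -0.14 for cerebellar granule cells (6). In SAMP8 vs SAMR1 the same medians were -0.30, 0.23, 0.32, -0.20, 0.31, 0.24 and -0.02. The part of tissue make-up in the differences of Gria4 and the other subunits was not tested.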

How the data were processed

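Tables of group comparisons on Clariom S Mouse arrays were used, 2 in all, from 9 hippocampal RNA samples. Array intensities were summarized by the authors with SST-RMA in the Transcriptome Analysis Console (version 4.0.2 in the methods, 4.0.1 in the series text), on the mm10 annotation named in the file headers. The authors deposited group averages as log2 signal for 22206 probe sets. Columns with the authors' own comparisons (fold change, p-value and false discovery rate) were not used. Records and methods give 3 arrays per group (duplicates in the series text), and a description in each record names a macrophage cell line and was disregarded.

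Groups follow the sample titles. Both tables hold identical SAMP8 averages (largest difference 0), so the comparisons share these arrays. Averages have 2 decimals, so a difference is uncertain by up to 0.01 from rounding alone. With 1 average per group no test over mice was made, and precision is limited by the number of arrays. Subunits were matched by equal gene symbol. For other genes with several probe sets, the one of highest average signal was taken. Named genes were the 10 subunits and Grin3b. From each list of related genes, those past 1.5-fold in SAMP8 vs SAMR1 or in TG-treated SAMP8 vs SAMP8 were named (at most 4). From the marker lists only some genes were named, and others that are not named also passed 1.5-fold. Cnih2, Camk2a, Slc17a7, Adarb1, Neurod6, Spink8, Lum, Dcn and the genes in the closing section were added after their values were seen. The subunits, the 10 lists of related genes and the 11 marker lists were chosen with earlier results of these data known. Centring used the group medians, 20 classes of signal, or 10 by 10 classes of signal and genomic span (RefSeq, GRCm38, with 97.2% of probe sets placed). Only the centring on classes of signal was tested on simulated data, which held a trend with signal and none with genomic span. Computation used Python 3.11.15, numpy 2.4.6, pandas 2.3.3 and matplotlib 3.10.9.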

Additional observations from a re-analysis of the deposited data

How the results depend on the processing

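No paired analysis was possible because the tables hold group averages and no value per array, and for the same reason no array could be left out in turn. At a limit of 1.2-fold instead of 1.5-fold, the subunits counted were 4 in SAMP8 vs SAMR1, 5 in TG-treated SAMP8 vs SAMP8 and 4 in TG-treated SAMP8 vs SAMR1. At 2-fold the last of these comparisons had 0, since Grin2d dropped out. The counts at 1.5-fold (0, 0 and 1) were the same numbers under the 3 ways of centring. Centring on probe sets of like signal and genomic span brought the median of the subunits to 0.04 in SAMP8 vs SAMR1 and to -0.06 in TG-treated SAMP8 vs SAMP8. The other alternatives kept each of the medians within 0.1 of its value. Of 90 differences of single subunits under these ways of centring, 72 moved by less than 0.1 and 18 by 0.1 or more, and the only signs to change were those of Gria2, Grin1 and Grin2a between the strains and of Gria3 with TG. Removing the dimmest 25% of probe sets raised the share past 1.5-fold to 12.6%, 9.64% and 12.3% in the order above. The centring of lists, of contrasts between subunits and of the counts at 1.2-fold, and the marker sum without Camk2a, were chosen after seeing the data. No probe set with several symbols holds a subunit, so that alternative was not run. The spread between mice was not analysed here, and how far the genes of low signal (Grin2c, Grin2d and Grin3a) stand above background is unknown.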

Other observations

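Several markers of hippocampal neurons differed between the groups, and the genes below were named after their values were seen. Vip, a neuropeptide of interneurons that inhibit other interneurons, averaged 7.23 in SAMR1, 8.69 in SAMP8 and 9.43 with TG. Pvalb, the calcium-binding protein of fast-spiking interneurons, averaged 6.66, 6.82 and 7.65, and Sst, the peptide of dendrite-targeting interneurons, 11.74, 11.31 and 12.00. Gad2, an enzyme of GABA synthesis, was lowest with TG (11.04, 10.83 and 10.40). Of the other markers of the list, Gad1 differed by -0.35 with TG and Slc32a1 by -0.2. Of the 9 interneuron markers found, 5 were higher and 4 lower with TG, with a median of 0.08. Nrgn, a postsynaptic calmodulin-binding protein of excitatory neurons that acts downstream of NMDA receptor calcium entry, averaged 14.07 in SAMR1, 14.90 in SAMP8 and 15.74 with TG, whereas Prox1, a marker of dentate granule cells, differed by 0.59 between the strains and by -0.85 with TG.

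Grin1os, named as the opposite-strand transcript of Grin1, averaged 5.87 in SAMR1, 5.44 in SAMP8 and 5.63 with TG. Its difference between SAMP8 and SAMR1 was -0.43, against 0.08 for Grin1. Of all probe sets, 21.8% differed by at least 0.43 in either direction in this comparison. How far Grin1os stands above background is unknown.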
